A study of Mus musculus with 8 samples.

Results

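The genes described here are 9 genes of adrenergic signaling in the heart, chosen by name from the 43346 genes of the deposited count table: the beta receptors Adrb1 and Adrb3, the alpha1 receptors Adra1a and Adra1b, the receptor kinase Grk5, the stimulatory G protein gene Gnas, and the adenylyl cyclases Adcy5, Adcy6 and Adcy9. mRNA of the cardiac ventricles was sequenced from 4 male C57BL/6 mice that had received 1000000 LLC1 cells, a mouse lung carcinoma line, by injection when 7 weeks old, and from 4 male C57BL/6 mice of the same age that received the PBS vehicle. All 8 mice were sampled 14 days after the injection, and no transgene or gene deletion was used. Each library is 1 mouse, named by its injection and the code in its label (LLC1 1-2, 1-3, 1-5 and 2-2, and PBS 1-1, 1-3, 2-1 and 2-5). The comparison asks whether the transcripts of this pathway differ in heart between mice with and without the tumor.

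Noradrenaline from sympathetic nerves and circulating adrenaline raise heart rate and contractile force through these receptors. Beta1 receptors activate the stimulatory G protein encoded by Gnas, which switches on adenylyl cyclase, and the cAMP that is made activates protein kinase A, which phosphorylates channels, pumps and sarcomere proteins. Alpha1 receptors act through the Gq family on phospholipase C, and receptor kinases such as Grk5 phosphorylate activated receptors and dampen their signal.

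Of the 9 genes, 8 had enough counts to be tested and 2 were called, Adcy6 and Adcy5, both higher in the tumor-bearing mice. A gene was called when edgeR's quasi-likelihood test gave an FDR (Benjamini-Hochberg, over the 16111 genes tested) under 0.05. Over all genes tested 8.73% were called, 4.12% as higher and 4.61% as lower in the tumor-bearing mice, and none of the 9 genes was called lower. In 3 of the 8 genes (Gnas, Adcy5 and Adcy6) every tumor-bearing mouse was above every control mouse, where 17.2% of all genes tested had groups that did not overlap in one direction or the other. The 3 tested receptors, Grk5, Gnas and Adcy9 missed the FDR limit. Levels are given as counts per 1000000 counts after TMM scaling (CPM), and a change as the log2 fold change of LLC1 over PBS with its standard error (SE).

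**Figure D1:**
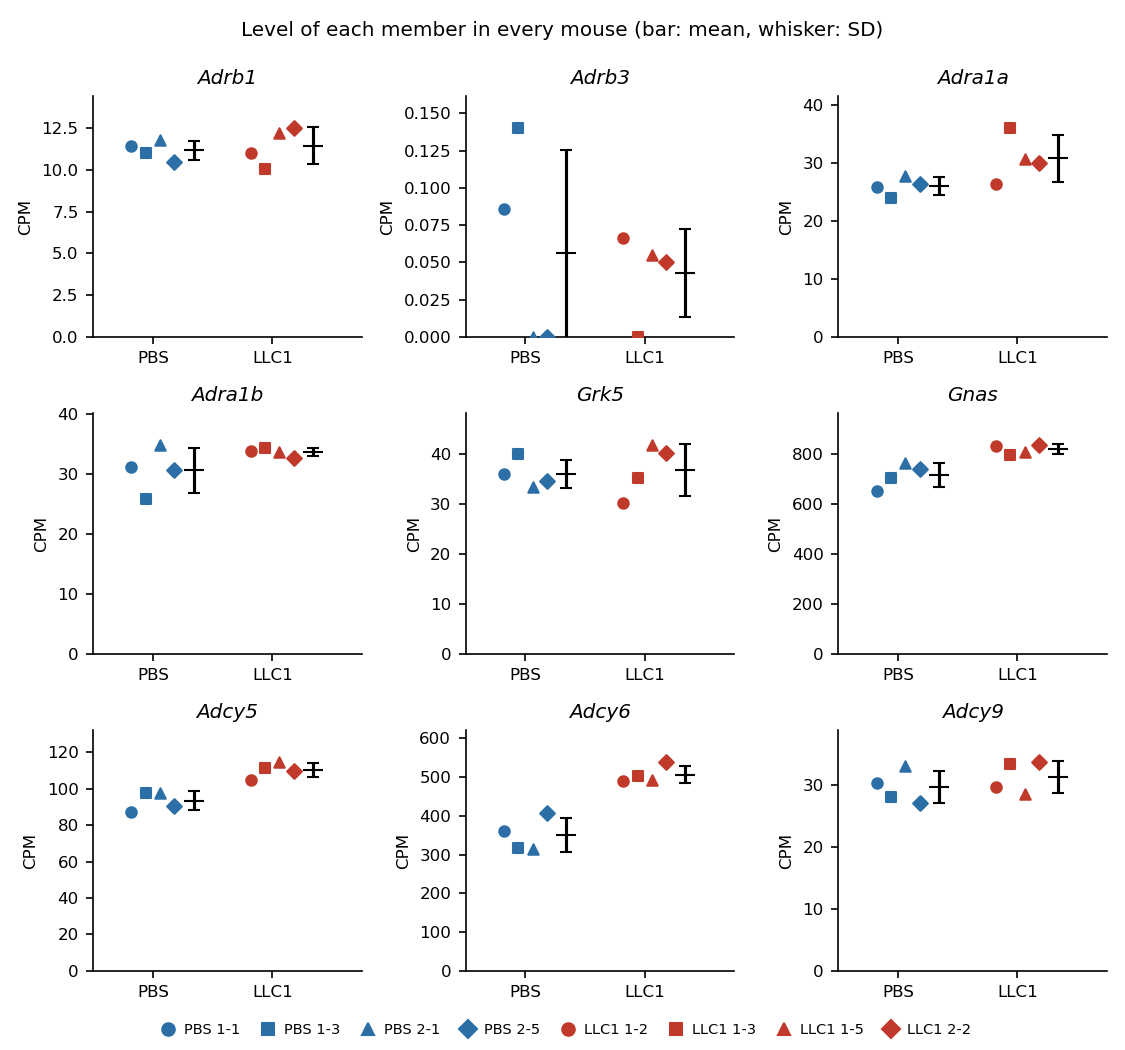
Level of each of the 9 genes (y axis, CPM, starting at 0, a separate scale for each gene) in the 4 PBS mice (blue) and the 4 LLC1 mice (red), 1 point per mouse, with the group mean and SD beside the points. The groups are apart in Gnas, Adcy5 and Adcy6 and overlap in the other 6 genes, and Adrb3 lies at 0 to 2 counts in every mouse.

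The libraries held 15342214 to 19747596 counts in the LLC1 mice and 12480706 to 16192158 in the PBS mice. The cardiomyocyte markers were abundant, with Myh6, the main myosin heavy chain of the adult mouse ventricle, at 54332 ± 1434 CPM in the tumor-bearing and 45869 ± 1227 CPM in the control mice (SD, n = 4). All 13 cardiomyocyte markers together came to 120273 to 127332 CPM in the LLC1 mice and 108237 to 120366 CPM in the PBS mice, and 4 of the 13 were called higher and none lower. The top PBS value was that of PBS 1-1, in which Ttn, the gene of titin, stood at 18482 CPM against 7893 to 9030 CPM in the other 7 mice, and without Ttn the sums did not overlap (112380 to 118301 CPM against 99840 to 101884 CPM). Among the non-muscle lists, 4 of 10 fibroblast, 3 of 9 macrophage and 2 of 10 endothelial markers were called lower, and 1 endothelial marker (Flt1) was called higher. Of the 10 smooth muscle and pericyte markers 1 was called lower (Vtn), and their summed level did not overlap, at 1329 to 1367 CPM in the LLC1 mice and 1428 to 1613 CPM in the PBS mice. No adipocyte, erythroid or nerve marker tested was called. In bulk tissue, fewer cells of a type and less RNA per cell cannot be told apart. PBS 1-1 also stood apart from the other mice on the 2nd principal component, so values without it are given beside the results on Gnas and Adcy5 and beside the list counts that change most with it.

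Promoter sequences are shown for the cyclase that was called and has an entry (Adcy5), for a cyclase that was not called (Adcy9), and for the Gnas start nearest to the exons that carry its reads. They come from RefSeq (GRCm38.p6, 250 bases before to 50 bases after a start site), which had 10 entries for 6 of the 9 genes. There was no entry for Adcy6, Adra1a and Adrb3. Each is written 5′ to 3′ on the strand of its gene, and capitals mark GGGCGG, the GC box bound by Sp1-type factors, and TGACG, which forms one side of a cAMP response element, on either strand.
Adcy5, chr16:35154614-35154913, plus strand: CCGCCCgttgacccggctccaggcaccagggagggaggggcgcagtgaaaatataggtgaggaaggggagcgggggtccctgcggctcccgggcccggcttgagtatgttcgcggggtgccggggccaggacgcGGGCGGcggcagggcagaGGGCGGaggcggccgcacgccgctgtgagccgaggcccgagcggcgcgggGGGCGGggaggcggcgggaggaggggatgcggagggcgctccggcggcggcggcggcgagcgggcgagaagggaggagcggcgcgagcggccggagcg
Adcy9, chr16:4420449-4420748, minus strand: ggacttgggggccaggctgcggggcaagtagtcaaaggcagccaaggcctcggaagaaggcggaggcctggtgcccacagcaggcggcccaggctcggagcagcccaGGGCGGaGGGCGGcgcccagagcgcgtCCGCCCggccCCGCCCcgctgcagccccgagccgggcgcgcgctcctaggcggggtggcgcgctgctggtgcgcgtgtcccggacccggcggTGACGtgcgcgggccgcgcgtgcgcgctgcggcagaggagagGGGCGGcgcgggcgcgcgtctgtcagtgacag
Gnas, chr2:174329756-174330055, plus strand: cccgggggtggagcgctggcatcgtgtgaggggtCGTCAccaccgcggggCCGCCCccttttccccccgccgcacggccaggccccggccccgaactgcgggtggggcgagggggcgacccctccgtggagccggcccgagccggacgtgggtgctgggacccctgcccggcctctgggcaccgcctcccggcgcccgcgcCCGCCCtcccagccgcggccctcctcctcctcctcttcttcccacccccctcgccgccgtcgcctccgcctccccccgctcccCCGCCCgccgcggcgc
The 3 sequences are rich in G and C, at 79.0% in Adcy5, 78.3% in Adcy9 and 81.7% in Gnas. The GC box occurred 4 times in the Adcy5 sequence, 5 times in that of Adcy9 and 3 times in that of Gnas, and at least once in 35.7% of all 32851 promoters of this length. TGACG occurred once in the Adcy9 and once in the Gnas sequence, was not in the Adcy5 window, and was in 20.8% of all promoters. The full element TGACGTCA, which contains TGACG, as well as CATTCC and CACGTG, were in none of the 10 windows, against 1.79%, 14.7% and 7.15% of all promoters. The called and the uncalled cyclase therefore both had GC boxes in these windows.

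Adrb1 encodes the beta1 receptor, the main receptor through which catecholamines drive the force and rate of the heart. The gene (ENSMUSG00000035283) lies on the plus strand of chromosome 19, at 56722372 to 56724862 of mm10. Its level was 11.0, 10.1, 12.2 and 12.5 CPM in LLC1 1-2, 1-3, 1-5 and 2-2, and 11.4, 11.0, 11.8 and 10.5 CPM in PBS 1-1, 1-3, 2-1 and 2-5. The groups overlapped, with both the lowest and the highest value in tumor-bearing mice. The means were 11.5 ± 1.12 and 11.2 ± 0.565 CPM (SD, n = 4), and the log2 fold change was 0.04 (SE 0.10, 95% interval -0.17 to 0.25, FDR 0.840 in edgeR's test). A 2-sided exact permutation test, which enumerates 70 arrangements and cannot give a p below 0.0286, gave p = 0.714. As a fold, the interval runs from 0.887 to 1.19.

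Adrb3, the beta3 receptor, is known mainly from adipose tissue and is present at low levels in heart. The table placed it (ENSMUSG00000031489) on the minus strand of chromosome 8, at 27225776 to 27229588. Its counts were 1, 0, 1 and 1 in the LLC1 mice and 1, 2, 0 and 0 in the PBS mice, 3 in each group. These are too few for the filter on low counts, so Adrb3 was not tested, and no fold change is given. A total of 3 counts, the limit that a count of 0 allows, corresponds to 0.151 to 0.257 CPM in these libraries, for counting error only. The annotation also places the antisense gene Gm45470 over part of its exons.

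The alpha1 receptors were both detected in every mouse, and neither was called. Adra1a, the alpha1A receptor (ENSMUSG00000045875, chromosome 14, 66635251 to 66733462, plus strand), was at 26.4, 36.1, 30.7 and 30.1 CPM in the LLC1 mice and at 25.9, 24.0, 27.8 and 26.4 CPM in the PBS mice. LLC1 1-3 was the highest and LLC1 1-2 lay among the controls, so the groups overlapped. The means were 30.8 ± 3.99 and 26.0 ± 1.58 CPM, with a log2 fold change of 0.24 (SE 0.09, 95% interval 0.04 to 0.45), an FDR of 0.134 in edgeR's test and an exact permutation p of 0.0857. Adra1b, the alpha1B receptor (ENSMUSG00000050541, chromosome 11, 43774606 to 43901210, minus strand), was at 33.9, 34.4, 33.7 and 32.8 CPM in the LLC1 mice and at 31.2, 25.8, 34.9 and 30.7 CPM in the PBS mice. PBS 2-1 was above all tumor-bearing mice and PBS 1-3 was the lowest. The LLC1 values had a coefficient of variation of 2.01% and the PBS values one of 12.2%. The log2 fold change was 0.13 (SE 0.09, 95% interval -0.05 to 0.32), with FDR 0.361 in edgeR's test and an exact permutation p of 0.143.

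Divided by gene length, Adra1b gave the largest part of the summed level of the 4 receptor genes in every mouse. Its share was 54.3% ± 1.72 in the tumor-bearing and 53.9% ± 2.23 in the control mice (SD, n = 4). Adrb1 followed with 25.1% ± 2.43 and 26.9% ± 1.78, and Adra1a with 20.6% ± 2.30 and 19.1% ± 0.603. The ratio of Adra1b to Adrb1 per length was 1.93 to 2.51 in the LLC1 mice and 1.73 to 2.17 in the PBS mice, so the groups overlapped. Only in LLC1 1-3 was Adra1a above Adrb1 per length, with a ratio of 1.10, while it was 0.666 to 0.770 in the other 7 mice. Without division by length the order of the receptors changed, with Adra1a at 40.4% and 38.4% and Adrb1 at 15.1% and 16.5% of the 4 genes; the Adra1a model in the table has 8144 bases and that of Adrb1 has 2491.

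**Figure D2:**
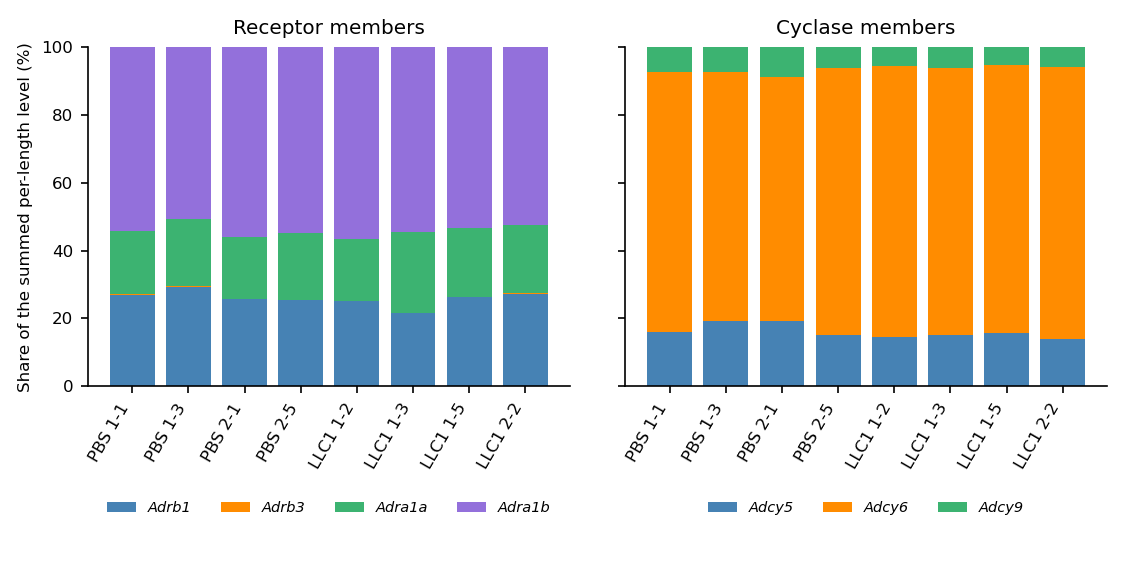
Share of each gene (y axis, percent) in the summed level per gene length of the 4 receptor genes (left) and of the 3 cyclase genes (right), 1 stacked bar per mouse. Adra1b is the largest part of each receptor bar and Adcy6 of each cyclase bar, at 78.9% to 80.2% in the LLC1 and 72.0% to 78.9% in the PBS mice; Adrb3 is too small to see.

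Grk5 (ENSMUSG00000003228) lies on the plus strand of chromosome 19, at 60889749 to 61092553. Its level was 30.2, 35.2, 41.7 and 40.1 CPM in the LLC1 mice and 35.9, 39.9, 33.4 and 34.6 CPM in the PBS mice. The tumor-bearing mice held both the lowest and the highest value. The means were 36.8 ± 5.19 and 36.0 ± 2.83 CPM and the log2 fold change was 0.04 (SE 0.10, 95% interval -0.18 to 0.26), with FDR 0.853 in edgeR's test and an exact permutation p of 0.771. The sign of the Grk5 difference turned in 3 of the 8 fits that left out a mouse, and that of Adrb1 in the fit without LLC1 2-2. Both intervals include 0. None of the other 6 receptor kinases and arrestins tested was called, while 1 was on the scale of the cardiomyocyte markers and 4 without Ttn among them, a scale that moved the median of all genes down. The 2 with the lowest FDR were Arrb1 and Arrb2, the beta-arrestins that bind phosphorylated receptors, at log2 fold changes of -0.28 (FDR 0.108) and -0.22 (FDR 0.216) in edgeR's test. Adrbk1, which encodes the receptor kinase GRK2, was at 79.6 ± 2.34 and 77.2 ± 6.82 CPM, and per length at 17.8 and 17.2 against 11.6 and 11.4 CPM per kilobase for Grk5.

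Gnas encodes the stimulatory G protein alpha subunit, which carries the signal from beta receptors to adenylyl cyclase, and further imprinted transcripts that start at exons upstream. The gene (ENSMUSG00000027523) spans 174284320 to 174346744 on the plus strand of chromosome 2. Its level was 835, 800, 810 and 839 CPM in the LLC1 mice and 654, 707, 766 and 743 CPM in the PBS mice. The groups did not overlap, and PBS 1-1 was the lowest. The means were 821 ± 19.0 and 718 ± 48.6 CPM (SD, n = 4), a fold of 1.14 (1.04 to 1.26) and a log2 fold change of 0.19 (SE 0.07, 95% interval 0.05 to 0.34). The FDR of 0.0849 in edgeR's test missed the limit, and the exact permutation p was 0.0286, the smallest possible. Gnas passed the limit with DESeq2 (FDR 0.0263) and with the first number of the mouse code as a covariate in edgeR (FDR 0.0418), and in none of the fits that left out a mouse. Without PBS 1-1 the log2 fold change was 0.15 (FDR 0.107 in edgeR's test). On the scale of the cardiomyocyte markers it was 0.04 (FDR 0.759 in edgeR's test), or 0.0022 without Ttn among the markers.

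The reads of Gnas lie almost wholly on exons that another gene model covers. Gm20721 (chromosome 2, 174330319 to 174346712, minus strand) is annotated in GENCODE M21 with 99.0% of its exon bases inside Gnas exons, on the opposite strand. Its counts were 97.5% to 99.6% of those of Gnas in the 8 mice, with the lowest share in PBS 1-1 and 99.4% to 99.6% in the others. The counts of one gene therefore recur in the other, and strands were not told apart by the library kit. Nespas, antisense to an upstream exon, had 0 to 2 counts per mouse. These shared exons make up 13.1% of the exon bases of Gnas, so its level per length depends on the model. It was 73.4 ± 1.70 CPM per kilobase in the tumor-bearing mice and 64.1 ± 4.34 in the controls over the full model of 11186 bases, and Gm20721 was at 551 ± 12.8 and 479 ± 36.5 over 1484 bases.

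Adcy6, a cyclase that is abundant in cardiomyocytes and is activated by the Gnas product, had the largest change among the 8 genes. It (ENSMUSG00000022994) lies on the minus strand of chromosome 15, at 98589994 to 98607633. Its level was 490, 502, 493 and 539 CPM in the LLC1 mice and 362, 318, 313 and 407 CPM in the PBS mice. Every tumor-bearing mouse was above every control mouse, and the nearest values were 490 in LLC1 1-2 and 407 in PBS 2-5. The means were 506 ± 22.6 and 350 ± 43.9 CPM (SD, n = 4), a fold of 1.45 (1.27 to 1.64). The log2 fold change of 0.53 (SE 0.09, 95% interval 0.35 to 0.72) had an FDR of 0.00440 in edgeR's test and ranked at place 153 by p among the 16111 genes, and the exact permutation p was 0.0286. A larger absolute change was found in 7.57% of all genes tested. Adcy6 was called with all 10 other settings and in all 8 fits that left out a mouse, with log2 fold changes of 0.48 to 0.61.

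Adcy5, the other cyclase that is prominent in heart muscle, was also called, with a smaller change. It (ENSMUSG00000022840) lies on the plus strand of chromosome 16, at 35154877 to 35305737. Its level was 105, 112, 115 and 110 CPM in the LLC1 mice and 87.4, 97.9, 97.8 and 90.5 CPM in the PBS mice. The groups did not overlap, with 105 in LLC1 1-2 and 97.9 in PBS 1-3 as nearest values. The means were 110 ± 4.08 and 93.4 ± 5.27 CPM, a fold of 1.18 (1.07 to 1.30), with a log2 fold change of 0.24 (SE 0.06, 95% interval 0.10 to 0.37), an FDR of 0.0344 in edgeR's test and an exact permutation p of 0.0286. The call was close to the limit. It was lost with scaling to total counts only (0.18, FDR 0.188 in edgeR's test) and in 7 of the 8 fits that left out a mouse, with FDRs from 0.0432 without PBS 1-1 to 0.104 without LLC1 1-5, while the log2 fold change stayed at 0.21 to 0.26 in all 8.

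Adcy9, a cyclase of broad expression, was not called. It (ENSMUSG00000005580) lies on the minus strand of chromosome 16, at 4287529 to 4420498. Its level was 29.6, 33.3, 28.4 and 33.7 CPM in the LLC1 mice and 30.2, 28.0, 33.0 and 27.1 CPM in the PBS mice. The groups overlapped over most of their range. The log2 fold change was 0.08 (SE 0.09, 95% interval -0.11 to 0.27), with FDR 0.607 in edgeR's test and an exact permutation p of 0.343.

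**Figure D3:**
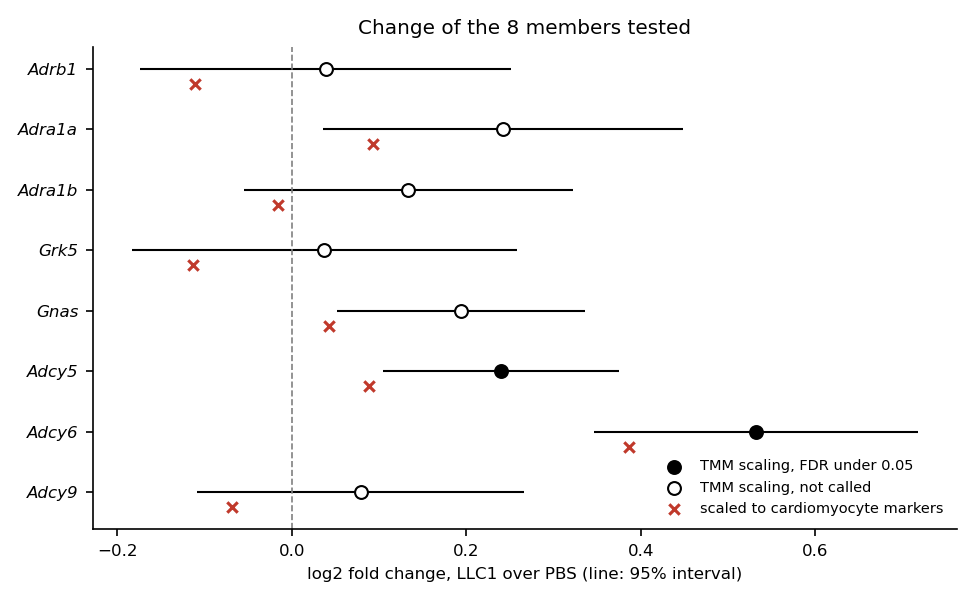
Log2 fold change of LLC1 over PBS (x axis) of the 8 genes tested, with its 95% interval, filled where edgeR's test gave an FDR under 0.05, and the same change when libraries are scaled to 13 cardiomyocyte markers (red crosses). Adcy6 at 0.53 is the farthest from 0, and the crosses lie about 0.15 to the left, with 4 of them below 0.

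Adcy6 shares exon bases with an antisense gene, as Gnas does. Gm29331 (chromosome 15, 98589990 to 98591090, plus strand) lies with all of its 605 exon bases inside Adcy6 exons outside the coding sequence. It had 63.8 to 72.8 CPM in the LLC1 mice and 45.1 to 55.3 CPM in the PBS mice, which is 12.9% to 14.4% of the Adcy6 counts of the same mouse. With its counts taken off Adcy6, the log2 fold change was 0.54 (FDR 0.00440 in edgeR's test).

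Because 4 of the 13 cardiomyocyte markers were called higher in the tumor-bearing mice, the 3 genes without overlap were also set against them. Per 10000 CPM of the 13 markers, Adcy6 stood at 39.1, 41.2, 38.7 and 44.8 CPM in the LLC1 mice and at 30.0, 29.3, 28.9 and 37.0 CPM in the PBS mice. The groups still did not overlap, and the exact permutation p was 0.0286. Adcy5 stood at 8.39, 9.15, 9.01 and 9.14 CPM against 7.26, 9.04, 9.03 and 8.24 CPM on this scale, with overlap and an exact permutation p of 0.229. For Gnas the exact permutation p was 0.771. Scaling whole libraries to the 13 markers moved the median log2 fold change of all genes by -0.15, from -0.01 to -0.16. On that scale Adcy6 was at 0.39 (FDR 0.0144 in edgeR's test) and Adcy5 at 0.09 (FDR 0.464 in edgeR's test), which is 0.55 and 0.25 above the median of all genes. Without Ttn among the markers, Adcy6 was at 0.34 (FDR 0.0131 in edgeR's test) and Adcy5 at 0.05 (FDR 0.623 in edgeR's test). On this scale Adcy6 thus remained called and Adcy5 did not.

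**Figure D4:**
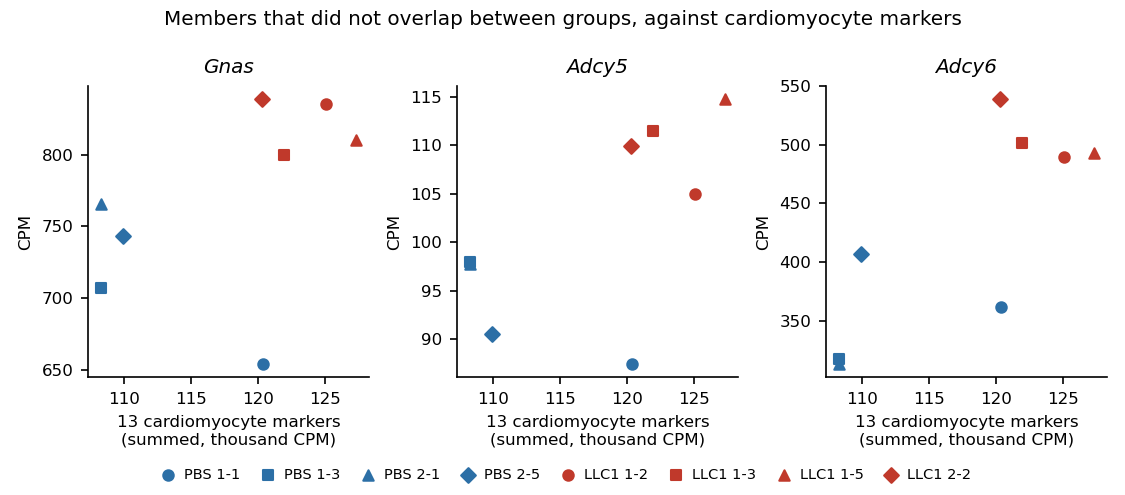
CPM of Gnas, Adcy5 and Adcy6 (y axes, not starting at 0) against the summed level of 13 cardiomyocyte markers (x axis, in units of 1000 CPM), 1 point per mouse, PBS in blue and LLC1 in red. PBS 1-1 has the marker sum of the LLC1 mice (120366 CPM) with the Gnas, Adcy5 and Adcy6 levels of the PBS mice.

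Among the 3 cyclase genes, Adcy6 made up most of the summed level per length. Its share was 79.4% ± 0.614 in the tumor-bearing and 75.2% ± 3.17 in the control mice (SD, n = 4), and PBS 2-5, at 78.9%, was the highest control and lay just below the lowest tumor-bearing mouse, LLC1 1-3. The shares of Adcy5 were 14.9% ± 0.720 and 17.4% ± 2.24, and those of Adcy9 were 5.67% ± 0.331 and 7.43% ± 1.10. The ratio of Adcy6 to Adcy5 was 5.01 to 5.71 in the LLC1 mice and 3.73 to 5.24 in the PBS mice, and the groups overlapped. Over the 8 mice Adcy5 and Adcy6 correlated with Pearson's r = 0.72, and after the group means were taken off with r = -0.61, over points that share the libraries and with no test made.

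By level per length, the order in the control mice was Gnas (64.1 CPM per kilobase), Adcy6 (58.2), Adcy5 (13.3), Grk5 (11.4), Adra1b (9.06), Adcy9 (5.69), Adrb1 (4.49), Adra1a (3.20) and Adrb3 (0.0195). Gnas and Adcy6 overlapped in the control mice, at 58.5 to 68.4 and 52.1 to 67.7 CPM per kilobase. In the tumor-bearing mice Adcy6, at 81.4 to 89.6, was above Gnas, at 71.5 to 75.0, on the full Gnas model. This order depends on the model. Over the 1484 bases of Gm20721, with nearly the same counts, the mean was 551 in the tumor-bearing and 479 in the control mice, above Adcy6. Adcy5 and Grk5 overlapped in the controls, at 12.5 to 14.0 and 10.5 to 12.6, and not in the tumor-bearing mice, where Adcy5 was at 15.0 to 16.4. Grk5 and Adra1b overlapped in the tumor-bearing mice, at 9.55 to 13.2 and 9.68 to 10.2, as did Adrb1 and Adra1a, at 4.04 to 5.03 and 3.24 to 4.43. In the controls both of these pairs were apart, and the pairs Adcy6 with Adcy5, Adra1b with Adcy9 and Adcy9 with Adrb1 were apart in both groups. By mean level per length over all 8 mice, 95.7% of the genes tested were below Adcy6, 50.3% below Adrb1 and 43.3% below Adra1a. Levels per length refer to the gene models of the table, which are shorter than those of GENCODE M21 except for Adra1b, Gnas and Adcy9. They hold 3165 against 7055 exon bases for Grk5, 2491 against 3382 for Adrb1 and 2893 against 3376 for Adrb3. For Adcy6 they hold 6017 against 6782, for Adra1a 8144 against 8728 and for Adcy5 7007 against 7184.

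Beyond the 9 genes, 150 genes of 12 lists around this pathway were tested. Of these, 23 were called (15.3%), 10 as higher and 13 as lower in the tumor-bearing mice, against 8.73% called among all genes tested, and their median log2 fold change was -0.07 against -0.01 for all genes tested. The 23 calls became 7 without PBS 1-3, 10 without LLC1 1-3, 14 without LLC1 1-5 and 14 without LLC1 2-2, and 35 on the scale of the cardiomyocyte markers or 56 without Ttn among them. Calls among all genes tested moved as well, from 1406 to 542, 634, 712 and 832 in the same fits without a mouse, in this order. On the marker scale they were 2825, or 4564 without Ttn. Without Ttn among the markers, calls also rose to 3 of the other adenylyl cyclases, 7 of the phosphodiesterase list, 3 of the kinase A subunits and inhibitors and 4 of the cAMP effectors. The lists are described in the order in which the signal runs. FDRs in the next paragraphs are from edgeR's quasi-likelihood test.

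**Figure D5:**
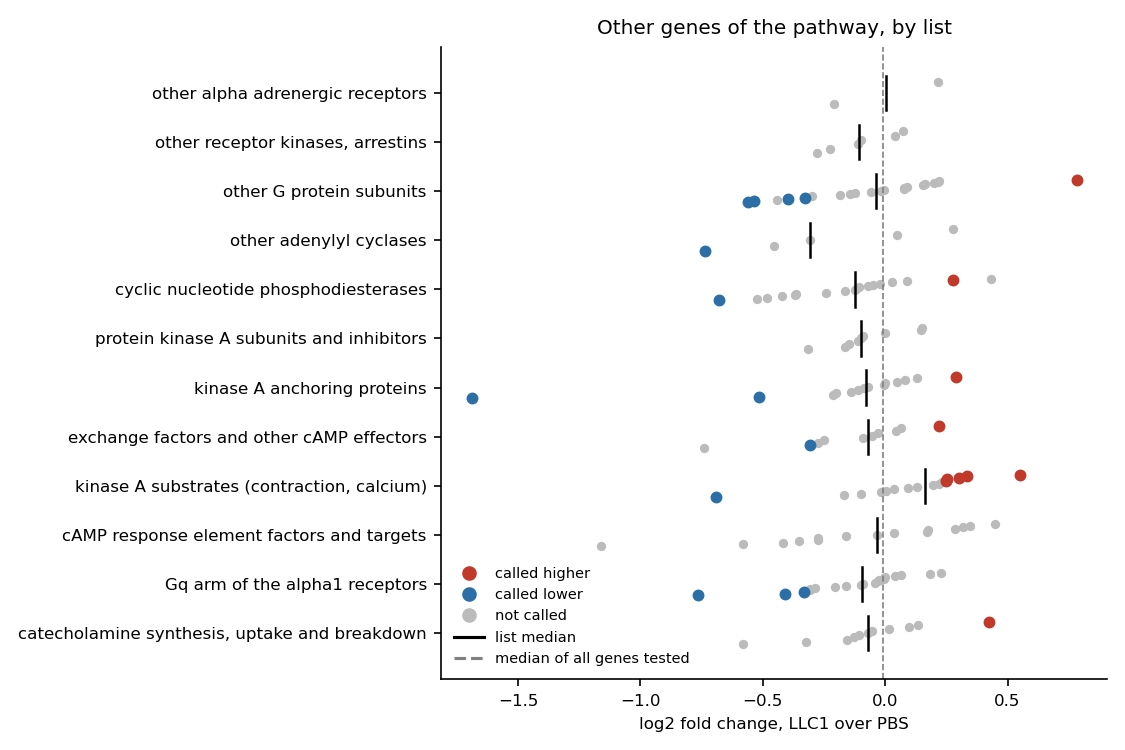
Log2 fold change of LLC1 over PBS (x axis) of the 150 other pathway genes tested, 1 point per gene in 12 lists, red where called higher, blue where called lower and grey where not called, with the list's median (black line) and the median of all genes tested (dashed). The kinase A substrates hold 5 of the 10 genes called higher, and the G protein subunits 4 of the 13 called lower.

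Among genes of catecholamine synthesis, uptake and breakdown, 11 were tested and 1 was called, as higher. In the same list Th, which encodes tyrosine hydroxylase of sympathetic neurons, and Npy had 0 counts in every library. Of the other alpha receptors, Adra1d (2.66 and 3.12 CPM, log2 fold change -0.21, FDR 0.513) and Adra2b (1.24 and 1.04 CPM, log2 fold change 0.21, FDR 0.766) were tested and not called, and Adra2a and Adra2c were below the filter.

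Of 22 other G protein subunits tested, 1 was called higher and 4 lower, with a median log2 fold change of -0.04. Gnb3, a beta subunit, rose from 5.30 ± 1.25 to 9.13 ± 1.30 CPM (0.78, FDR 0.0176). Gng11, Gnb4 and Gng12, which encode gamma and beta subunits, fell by 0.56, 0.54 and 0.40 on the log2 scale (FDR 0.0218, 0.00516 and 0.0126). Gnai3, an inhibitory alpha subunit that opposes Gnas at the cyclase, fell by 0.33 (FDR 0.0403), from 30.6 ± 2.71 to 24.3 ± 2.16 CPM. Some markers of fibroblasts, macrophages and endothelial cells were lower as well, as given above, and their part in these results was not tested. The 5 calls of this list became 2 without LLC1 2-2 or PBS 1-3 and 3 without LLC1 1-3 or LLC1 1-5, and 10 on the scale of the cardiomyocyte markers or 11 without Ttn among them.

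Of 5 other adenylyl cyclases tested, Adcy7 alone was called. Adcy7, a cyclase known from blood and immune cells, fell by 0.73 on the log2 scale (SE 0.09, FDR 0.00105), from 34.0 ± 2.09 to 20.4 ± 2.26 CPM, and the groups did not overlap. All 9 macrophage markers in the table had lower means in the tumor-bearing mice, with summed levels of 264 to 340 against 300 to 424 CPM, and their part in the Adcy7 result was not tested. Adcy4, the other cyclase with a sizeable level per length (10.6 and 10.2 CPM per kilobase), had a log2 fold change of 0.05 (FDR 0.759).

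On the side of cAMP breakdown, 1 of 18 genes was called higher and 1 lower, with a median log2 fold change of -0.12. Pde3b, a phosphodiesterase that hydrolyzes cAMP, fell by 0.68 (FDR 0.0376), from 5.75 ± 1.14 to 3.57 ± 0.646 CPM, with overlap between the groups. Pde4dip, which rose by a log2 fold change of 0.28 (FDR 0.0166), encodes myomegalin, a protein that binds a phosphodiesterase and is not itself an enzyme. This list was unstable, with 0 to 4 calls over the fits that left out a mouse (0 without LLC1 1-3 or PBS 1-3, 4 without PBS 1-1). With all mice kept, it also had 4 calls with DESeq2, the likelihood ratio test, no filter on low counts and the code covariate.

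None of the 9 subunits and inhibitors of protein kinase A was called. Prkaca, the catalytic alpha subunit, had the lowest FDR (log2 fold change 0.15, FDR 0.175), followed by the inhibitor Pkig (0.15, FDR 0.227). Of 14 anchoring proteins, which tether the kinase to its targets, 1 was called higher and 2 lower. Akap5, an anchor that assembles the kinase with beta receptors and calcium channels, fell by 1.69 on the log2 scale (SE 0.18, FDR 0.000635), from 8.78 ± 1.39 to 2.70 ± 0.695 CPM. Akap5 was among the transcripts that the study tabulated from these same mice. Akap12 fell by 0.52 (FDR 0.00173), from 68.3 ± 4.48 to 47.8 ± 2.69 CPM, and Akap8l rose by 0.29 (FDR 0.0304). The 3 calls of this list became 5 on the scale of the cardiomyocyte markers and 8 without Ttn among them. Of 10 exchange factors and other cAMP effectors, Popdc2, a cAMP-binding membrane protein of muscle, rose by 0.22 (FDR 0.0492), and the small GTPase gene Rap1b fell by 0.31 (FDR 0.0126). These 2 calls became 0 without PBS 1-3, and 1 without LLC1 1-2, LLC1 1-3, LLC1 1-5 or PBS 2-1, with the likelihood ratio test, with either other filter on low counts and with the code covariate.

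The substrates of protein kinase A in contraction and calcium cycling held the most calls, with 5 of 16 higher, 1 lower and a median log2 fold change of 0.16. Mybpc3, the cardiac myosin-binding protein C, rose from 4966 ± 156 to 6269 ± 139 CPM (0.34, FDR 0.00678). Fxyd1 (phospholemman, a regulator of the sodium pump), Cacna1c (the pore of the L-type calcium channel) and Hspb6 (a small heat shock protein) rose by 0.30, 0.25 and 0.25 (FDR 0.0128, 0.0294 and 0.0350). Lipe, the largest rise in this list (0.55, FDR 0.0429), encodes hormone-sensitive lipase, a kinase A substrate of fat breakdown and not of contraction. Kcne1, a subunit of a potassium channel, fell by 0.69 (FDR 0.0166). The 13 cardiomyocyte markers had a median log2 fold change of 0.20, and their part in this result was not tested. On the scale of those markers the list had 2 calls, with scaling to total counts only it also had 2, and it had 1 without PBS 1-3, 2 without LLC1 1-3 and 3 without PBS 2-1.

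None of the 15 cAMP response element factors and targets was called, and the 2 with the lowest FDR were Crtc1, a coactivator (0.32, FDR 0.0919), and the phosphatase gene Dusp1 (-0.42, FDR 0.105). This list had 1 call without PBS 1-1, PBS 2-1 or PBS 2-5, with no filter on low counts and with the code covariate, and 3 on the scale of the cardiomyocyte markers. In the Gq arm of the alpha1 receptors, 3 of 22 genes were called, all lower. Among these were Prkcb (protein kinase C beta, -0.77, FDR 0.0430) and Itpr2 (an inositol trisphosphate receptor of the heart, -0.33, FDR 0.0287). Itpr2 went from 35.9 ± 2.22 to 28.5 ± 2.65 CPM without overlap, while Prkcb was low in both groups, at 2.44 ± 0.221 and 1.42 ± 0.378 CPM. The list had no call without LLC1 1-3 or PBS 1-3, and 1 call without LLC1 1-2, LLC1 1-5 or LLC1 2-2, while it had 6 on the scale of the cardiomyocyte markers and 9 without Ttn among them. The lower fibroblast, macrophage and endothelial markers stand beside this list too, and their part in it was not tested.

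The genes whose pattern over the 8 mice was most like that of each tested gene were sought among 11368 genes with a mean of at least 5 CPM, by Pearson's r of log2 CPM. For Adcy6 they were the overlapping Gm29331 (r = 0.992) and Ppl (periplakin, r = 0.988), and for Gnas they were Aldh7a1 (r = 0.999) and the overlapping Gm20721 (r = 0.998). For Adcy5 they were Sema3b and Prmt5 (r = 0.977 and 0.976), and for Adcy9 Lrrc71 and Dsp (r = 0.966 and 0.919). For the receptors they were Lgals8 and Tmem71 with Adrb1 (r = 0.915 and 0.894), Cluh and Pced1a with Adra1a (r = 0.958 and 0.944) and Enpp2 and Gm11410 with Adra1b (r = 0.964 and 0.960). For Grk5 they were Gm20416 and Ggact (r = 0.928 and 0.927). These r values describe 8 libraries in 2 groups and are the highest of many, so that they carry no test.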

How the data were processed

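The authors made TruSeq v2 mRNA libraries from total ventricular RNA, a kit that does not mark strand, and deposited raw counts per gene for each of the 8 mice. The labels name CASAVA, STAR, featureCounts and mm10; versions, annotation and counting settings are not given in the sources used here. All 43346 gene rows carry a gene name, and depth is given with the results. Genes were kept with filterByExpr, scaled with TMM factors and tested with the quasi-likelihood F test of edgeR 4.0.16 (R 4.3.3), 4 LLC1 against 4 PBS mice, unpaired; the SE is the absolute log2 fold change over the square root of F. The p-values measure the spread between these mice only. Levels per length use the gene lengths of the table. Alternatives used DESeq2 1.42.0, limma-voom (limma 3.58.1), other scalings and filters, a covariate and each mouse left out. Scaling to cardiomyocyte markers and the subtraction of Gm29331 were added after the data were seen. Exons came from GENCODE M21 and promoters from RefSeq, read with Python 3.11.15, pandas 2.3.3 and numpy 2.4.6, and figures were drawn with matplotlib 3.10.9. Steps were tested on simulated data. The 9 genes and all lists were chosen with earlier results of these data known. Named are the 9 genes, in each list the called genes (up to 4 per direction by size of change) or else the 2 with the lowest FDR, and the 2 genes most like each of the 8 tested; any other gene was named after its values were seen. As an exception, some called genes of the lists are not reported here by name and remain in the totals. Grk2 and Grk3 are listed as Adrbk1 and Adrbk2.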

Additional observations from a re-analysis of the deposited data

How the results depend on the processing

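Over the 10 alternatives that kept all mice, Adcy6 was called in 10 (log2 fold change 0.48 to 0.56, FDR 4.4e-07 to 0.0127), Adcy5 in 9 (0.18 to 0.25), Gnas in 2, and the other 5 genes in none. Scaling to total counts only left 1 of the 9 genes called, moved Adrb1 and Grk5 to -0.016 each, and gave 225 genes higher and 793 lower in place of 663 and 743. With a mouse left out, 542 (without PBS 1-3) to 1949 genes (without PBS 1-1) were called in place of 1406, 1 or 2 of the 9 genes were called, and the log2 fold change ran from -0.013 to 0.095 for Adrb1 and from -0.028 to 0.12 for Grk5. Scaling to the cardiomyocyte markers, chosen after seeing the data, called 2825 genes (159 higher, 2666 lower) and 1 of the 9, and put Adrb1 at -0.11, Adra1b at -0.015, Grk5 at -0.11 and Adcy9 at -0.069; without Ttn among the markers it called 4564 genes (173 higher, 4391 lower) and 1 of the 9, with Adrb1 at -0.15, Adra1b at -0.058, Grk5 at -0.15 and Adcy9 at -0.11. The shift of all genes follows from the scaling itself; the causes of the other changes were not tested. No paired analysis was possible because the groups share only the code 1-3, which different animals carry. Depth limits Adrb3, with 6 counts in all, and shared exons limit Gnas and Adcy6.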
